A study of Mus musculus with 11 samples.

Results

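Metabotropic glutamate receptors are encoded by the Grm genes. The genes examined here were Grm2, Grm3, Grm4, Grm5, Grm7 and Grm8, picked by gene name, 6 of the 17118 genes in the table. Each was detected in every library, and all 6 passed the filter on low counts. Female C57/BL6 mice (labelled C57/BL6J) were 12 weeks old at treatment and were injected intraperitoneally 8 times, once per week. AC-T mice had doxorubicin (2 mg/kg) and cyclophosphamide (50 mg/kg) at the first 4 injections and paclitaxel (5 mg/kg) at the last 4, and control mice had 0.9% saline each time. Doxorubicin is an anthracycline, cyclophosphamide an alkylating agent and paclitaxel a microtubule stabiliser, and together they form a breast cancer regimen. All samples bear a 1-month label. RNA came from punches of frozen hippocampus, 1 mouse per library. Mice 501, 502, 503, 600 and 602 gave the 5 AC-T libraries, and mice 201, 202, 203, 300, 301 and 302 gave the 6 of the saline group.

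These receptors are G-protein coupled receptors that respond to glutamate over seconds, unlike the glutamate-gated ion channels. Group I, to which Grm5 belongs, couples to Gq and phospholipase C, sits mainly on the postsynaptic membrane and contributes to long-term depression in the hippocampus. Group II (Grm2 and Grm3) and group III (Grm4, Grm7 and Grm8) couple to Gi/o, lower cyclic AMP and act mostly on presynaptic terminals, where they limit transmitter release.

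Library totals lay between 23.4 and 32.1 M counts (M, mega), so each receptor value rests on 138 counts or more. All 10 markers of hippocampal tissue were above 0 in every library. Among them Prox1, a transcription factor of dentate granule neurons, stood at 60.5 to 107 CPM (read count scaled by TMM to a common library size), and Slc17a7, a vesicular glutamate transporter, at 667 to 1140 CPM. The summed level of the 10 markers was 4517 to 5354 CPM after AC-T and 3278 to 4528 CPM after saline. Neurod6 and Slc17a7 passed as higher after AC-T, 2 of 10 against 4.89% of all genes tested. The part of hippocampal content in the receptor values was not tested. Markers of thalamus and habenula differed between the groups: 14 of 16 tested were lower after AC-T, against 3.58% of all genes tested. Their summed level was 752 to 1075 CPM after AC-T and 1409 to 2111 CPM after saline. This list was chosen with earlier results of these data known. The count and the marker level are therefore not an independent measure of thalamic content. Of the 17 markers in the table, Gbx2 was at 0 in 1 library and Pou4f1 in 10. Xist, which female cells transcribe, was at 0 in saline 300, and the receptors' fold changes without that library are also given. Mouse numbers begin with 2 or 3 in the saline group and with 5 or 6 in the AC-T group, and mice with the same first digit are called a series here. The meaning of the digit is not given in the sources used here, and each series holds a single treatment. In such bulk tissue, fewer cells of a type and less RNA per cell cannot be told apart.

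To ask how AC-T altered these receptors, the libraries were compared with edgeR's quasi-likelihood test over all 15353 genes tested, with Benjamini-Hochberg adjusted p under 0.05 as the threshold. Grm4 fell to 0.575 of its saline level. The other 5 receptors did not pass: Grm5, Grm3 and Grm8 had higher means after AC-T, and Grm2 and Grm7 lower means. The 1 call among 6 compares with 8.47% of all genes tested (4.89% higher and 3.58% lower). The AC-T and saline libraries did not overlap for 2 of the 6, Grm4 and Grm5, against 7.52% of all genes tested. At an unadjusted p under 0.05 the count was 4 of 6, and 3829 of the 15353 genes tested.

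**Figure D1:**
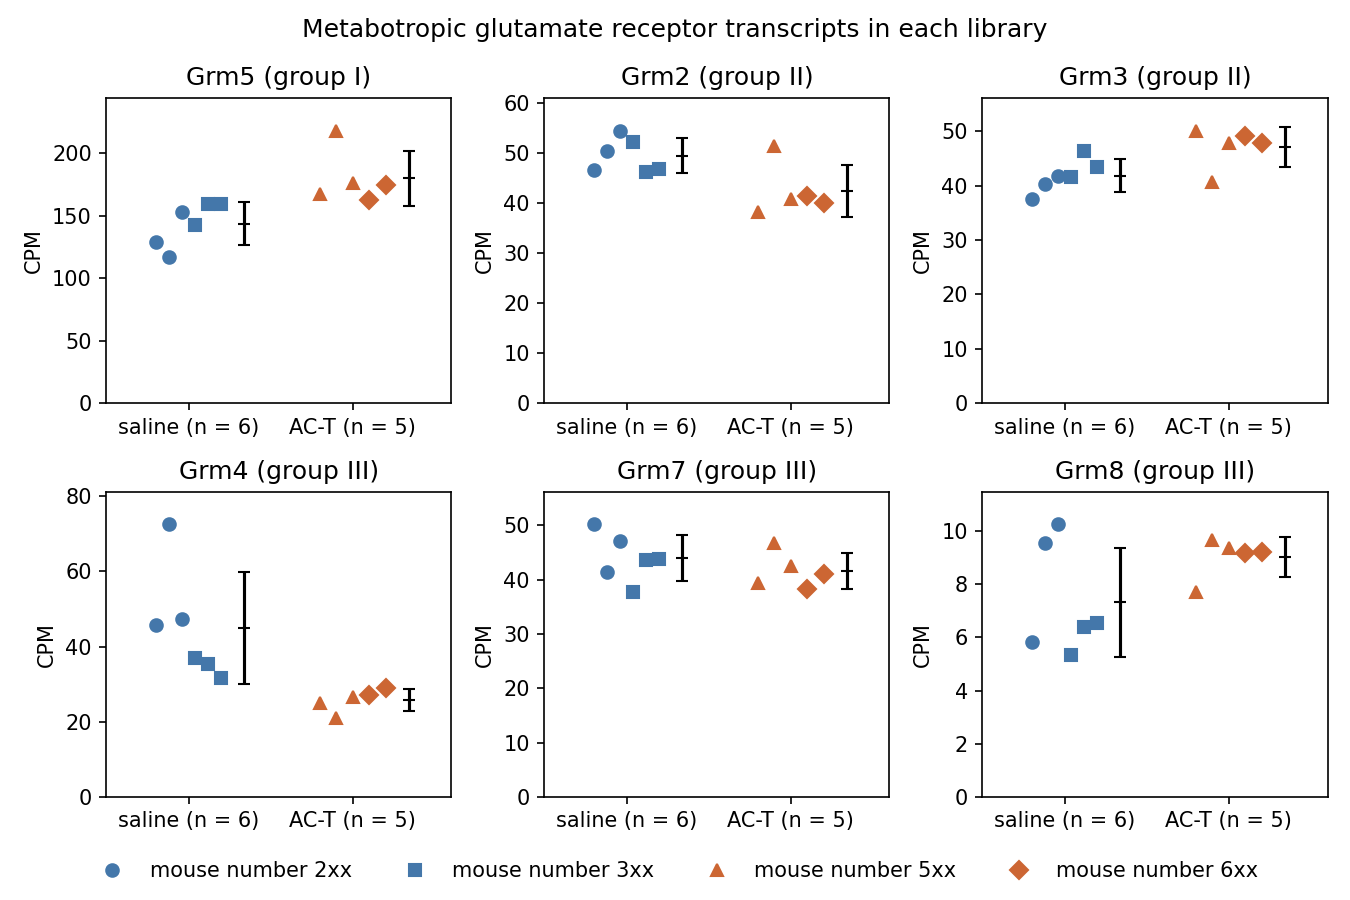
Level of each receptor in every library, in CPM on axes that start at 0. Points are libraries, shapes give the first digit of the mouse number, and black bars are mean ± SD for 6 saline and 5 AC-T libraries; Grm4 lies between 21.1 and 29.0 CPM after AC-T and between 31.7 and 72.5 CPM after saline.

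Group I was represented by Grm5, which encodes the main postsynaptic group I receptor of hippocampal pyramidal neurons and was the receptor with the highest CPM. After saline Grm5 stood at 129, 117, 153, 143, 160 and 159 CPM in mice 201, 202, 203, 300, 301 and 302. After AC-T it stood at 168, 218, 176, 163 and 175 CPM in mice 501, 502, 503, 600 and 602. Every AC-T library was above every saline library, with 163 CPM in the lowest AC-T library and 160 CPM in the highest saline library. The means were 180 ± 22.0 CPM after AC-T (SD, n = 5) and 144 ± 17.3 CPM after saline (SD, n = 6). The log2 fold change was 0.32 ± 0.10 (SE), with a 95% interval of 0.11 to 0.54, and did not pass the threshold (edgeR adjusted p = 0.0593).

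AC-T 502 held the highest Grm5 level, and without that library the log2 fold change was 0.25 (edgeR adjusted p = 0.137). With DESeq2 Grm5 passed (adjusted p = 0.0112), as it did in the edgeR fit of the genes above 0 in all libraries (adjusted p = 0.0417). With the thalamic marker level of each library as a covariate the log2 fold change was 0.01 ± 0.21 (SE). Treatment and thalamic marker level cannot be told apart well in that fit. Levels of CA1 pyramidal neuron markers, given under other observations, were higher in every AC-T library than in any saline library. Their part in the Grm5 values was not tested.

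Of the group II genes, Grm2 encodes a presynaptic autoreceptor found on mossy fibre terminals of dentate granule neurons. Its saline levels were 46.6, 50.4, 54.4, 52.3, 46.2 and 46.8 CPM in mice 201 to 302. After AC-T the levels were 38.2, 51.4, 40.8, 41.4 and 39.9 CPM in mice 501 to 602. All AC-T libraries but AC-T 502 were below the lowest saline library. The means were 42.3 ± 5.20 CPM (SD, n = 5) and 49.4 ± 3.44 CPM (SD, n = 6), and the log2 fold change of −0.22 ± 0.08 (SE; 95% interval −0.39 to −0.06) did not pass (edgeR adjusted p = 0.0950). The result turned on AC-T 502: without it the log2 fold change was −0.30 and passed (edgeR adjusted p = 0.0187). With DESeq2 and all libraries it passed as well (adjusted p = 0.0202).

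Grm3 is expressed by astrocytes as well as neurons, and its product responds to the dipeptide N-acetylaspartylglutamate in addition to glutamate. Saline libraries 201, 202, 203, 300, 301 and 302 held 37.5, 40.4, 41.8, 41.6, 46.3 and 43.5 CPM of Grm3. AC-T libraries 501, 502, 503, 600 and 602 held 50.1, 40.6, 47.8, 49.1 and 47.8 CPM. Again AC-T 502 stood among the saline libraries while the other 4 AC-T libraries were above them all. The log2 fold change was 0.17 ± 0.06 (SE; 95% interval 0.03 to 0.31; edgeR adjusted p = 0.120), and without AC-T 502 it was 0.22 with an adjusted p of 0.0496.

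The mirrored positions of AC-T 502 show in the ratio of Grm3 to Grm2 within each library, which does not depend on scaling between libraries. The ratio was 0.768 to 1.004 after saline and 1.17 to 1.31 in the AC-T libraries other than AC-T 502, where it was 0.791. AC-T 502 also held the lowest level of the 7 oligodendrocyte markers, with a mean log2 CPM of 9.23 against 9.75 to 9.88 in the other AC-T libraries and 9.47 to 9.97 after saline. Their summed level was 8528 CPM in AC-T 502 and at most 13754 CPM in the AC-T group, with 10894 to 15404 CPM after saline, and each of the 7 was above 0 in every library. Their part in the receptor values was not tested. Astrocyte markers had a mean log2 CPM of 8.08 to 8.51 after AC-T and 8.30 to 8.59 after saline, and 3 of 10 were lower after AC-T. Summed astrocyte marker levels were 4762 to 6468 CPM and 5125 to 6277 CPM, and each of the 10 was above 0 in every library. Their part in the Grm3 values was not tested either.

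Among group III genes, Grm4 encodes a presynaptic receptor that is abundant in cerebellar granule cells and in thalamic nuclei. Grm4 stood at 45.7, 72.5 and 47.3 CPM in saline 201, 202 and 203, and at 36.9, 35.3 and 31.7 CPM in saline 300, 301 and 302. After AC-T it stood at 24.9, 21.1, 26.7, 27.1 and 29.0 CPM in mice 501, 502, 503, 600 and 602. The groups did not overlap, and within saline every mouse of series 2 was above every mouse of series 3. The mean was 25.8 ± 2.99 CPM after AC-T (SD, n = 5) and 44.9 ± 14.8 CPM after saline (SD, n = 6), and the log2 fold change was −0.80 ± 0.19 (SE; 95% interval −1.22 to −0.38; edgeR adjusted p = 0.0285). The median of the 550 genes that fell was −0.39.

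The call for Grm4 ended on omission of any 1 of 6 libraries, AC-T 501 (edgeR adjusted p = 0.0549), AC-T 502 (0.0787), AC-T 503 (0.0502), AC-T 600 (0.0538), AC-T 602 (0.0528) or saline 203 (0.0529). It held without saline 202, the library with the highest level (log2 −0.61; edgeR adjusted p = 0.0205), and without saline 300 (log2 −0.86; edgeR adjusted p = 0.0356). The log2 fold change was −1.10 against saline series 2 alone (edgeR adjusted p = 0.00633) and −0.43 against saline series 3 alone (edgeR adjusted p = 0.0558). With series as a random effect in limma-voom it was −0.73 ± 0.21 (SE; adjusted p = 0.0916). In a model with 4 series means Grm4 was 0.67 lower on the log2 scale in saline series 3 than in series 2 (SE 0.17; edgeR adjusted p = 0.0803), about the size of the difference between the treatments.

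Thalamic marker levels differed between the groups in the direction of Grm4, and within the AC-T group the order of the libraries differed between them. Their mean log2 CPM was 6.00, 5.90, 5.88, 5.86, 5.47 and 5.29 in saline 201, 202, 203, 300, 301 and 302, and 5.05, 4.53, 4.66, 4.29 and 4.81 in AC-T 501, 502, 503, 600 and 602. In the 3 libraries of saline series 2, Grm4 and these markers were both at their highest, and the saline library with the lowest Grm4 level, saline 302, also had the lowest saline marker level. AC-T 501, with the highest marker level of the AC-T libraries, had the second lowest Grm4 level of that group (24.9 CPM), and AC-T 600, with the lowest marker level, the second highest (27.1 CPM). With this level as a covariate the log2 fold change of Grm4 was −0.11 ± 0.42 (SE; edgeR adjusted p = 0.999), against a SE of 0.19 without the covariate. Because the marker levels of the treatments do not overlap, treatment and thalamic marker level cannot be told apart well in this fit.

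**Figure D2:**
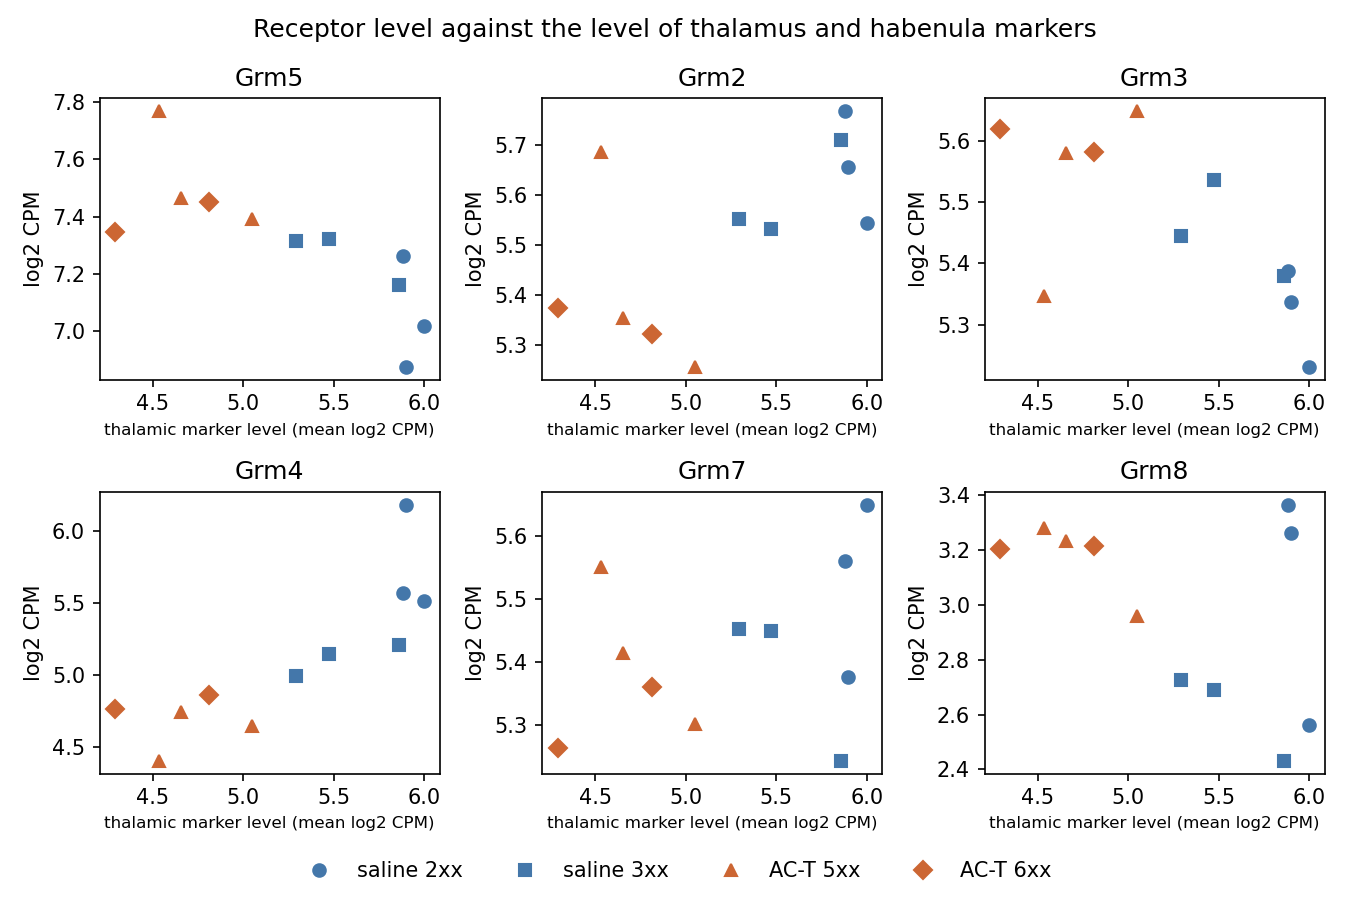
Log2 CPM of each receptor (vertical axes, which do not start at 0) against the mean log2 CPM of thalamus and habenula markers (horizontal axes) in 11 libraries, with colour for treatment and shape for mouse-number series. AC-T libraries lie between 4.29 and 5.05 on the horizontal axis and saline libraries between 5.29 and 6.00, and Grm4 is highest in the saline series 2 libraries on the right.

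Grm7 encodes a receptor of the presynaptic active zone with low affinity for glutamate. It stood at 37.8 to 50.1 CPM after saline (median 43.6) and at 39.3, 46.8, 42.5, 38.3 and 41.0 CPM in AC-T 501, 502, 503, 600 and 602. The AC-T values lay within the saline range. The log2 fold change was −0.08 ± 0.07 (SE; 95% interval −0.24 to 0.08; edgeR adjusted p = 0.559), and it did not pass in any alternative run.

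Grm8, a further presynaptic receptor gene of group III, was the least abundant. It stood at 5.83, 9.53 and 10.2 CPM in saline 201, 202 and 203, at 5.33, 6.39 and 6.55 CPM in saline 300, 301 and 302, and at 7.70, 9.65, 9.35, 9.16 and 9.23 CPM in AC-T 501, 502, 503, 600 and 602. Saline 202 and saline 203 stood with the AC-T libraries, and the other 4 saline libraries were below all of them. The log2 fold change was 0.30 ± 0.17 (SE; 95% interval −0.06 to 0.66; edgeR adjusted p = 0.290). Against saline series 3 alone it was 0.57 (edgeR adjusted p = 0.0280), and against saline series 2 alone 0.07. The spread after saline was wider than after AC-T for Grm8 (coefficients of variation of 28.1% and 8.42%) and for Grm4 (33.0% and 11.6%). For the other 4 receptors these coefficients lay between 6.96% and 12.3% in either group.

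Within the treatments, none of the 6 receptors passed between the mouse-number series in edgeR. At an unadjusted p under 0.05, 2 of 6 differed between the saline series (Grm4 and Grm8, both lower in series 3) and 0 of 6 between the AC-T series. Over all genes tested, 1.03% passed the adjusted threshold between the saline series and 0.117% between the AC-T series. The smallest adjusted p among the receptors was 0.0803 in saline and 0.682 in AC-T. Without saline 300 the log2 fold changes between the treatments were −0.22 for Grm2, 0.16 for Grm3, −0.86 for Grm4, 0.31 for Grm5, −0.13 for Grm7 and 0.22 for Grm8. Grm4 passed in that fit and the other 5 did not (edgeR adjusted p = 0.110 to 0.469), and the pathway lists had 19 calls.

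**Figure D3:**
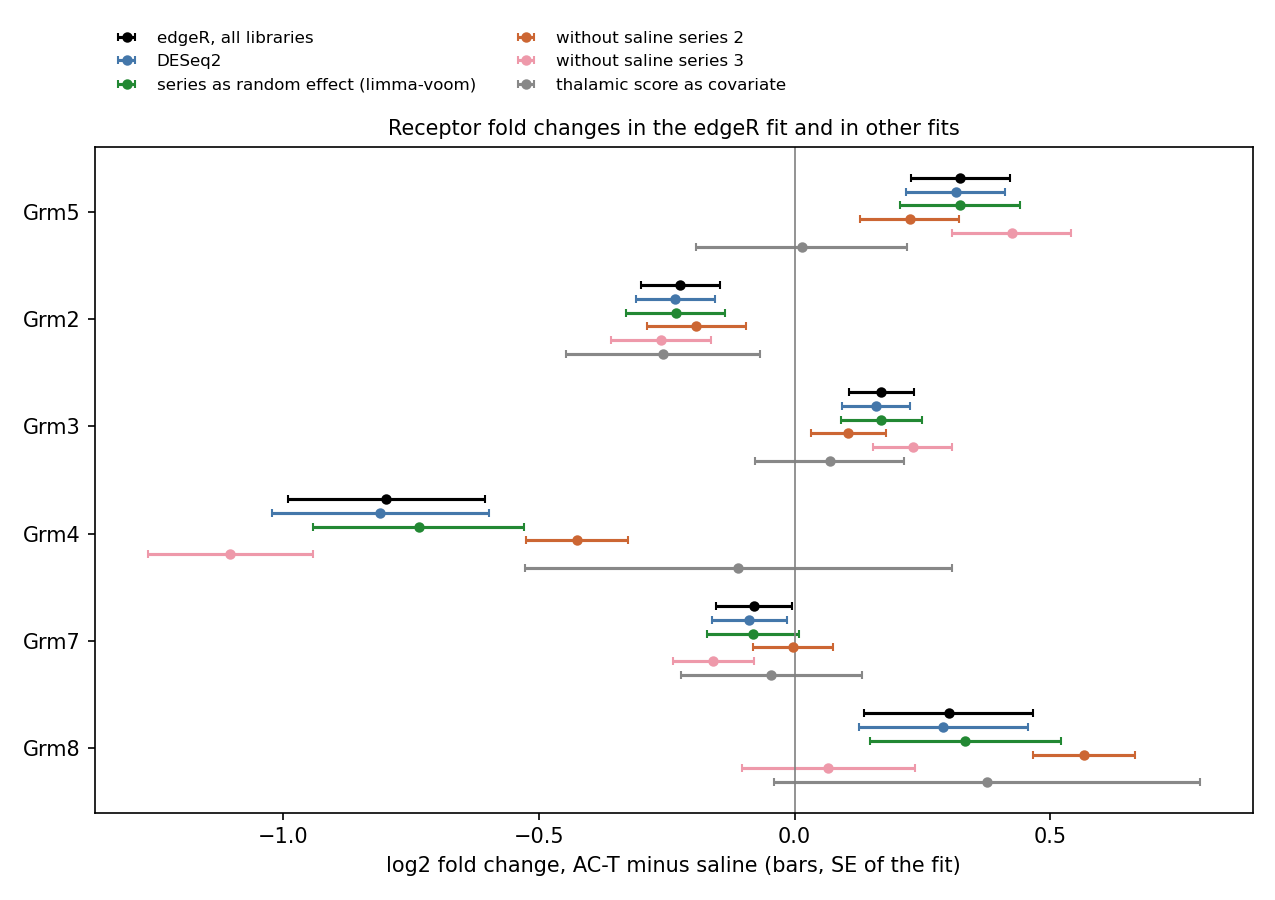
Log2 fold change of each receptor (AC-T minus saline; bars, SE) in the edgeR fit of all libraries and in 5 other fits. Grm4 is left of 0 in each fit shown, at −0.80 with all libraries and −0.11 with the thalamic marker level as covariate, and Grm8 is at 0.57 without saline series 2 and 0.07 without saline series 3.

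Levels were compared between receptors per kilobase of the longest annotated protein-coding transcript. On this scale Grm5 was highest after saline (17.9 ± 2.15 CPM per kilobase, SD, n = 6), followed by Grm3 (13.7 ± 0.974). Grm2 (10.5 ± 0.730), Grm7 (10.5 ± 1.03) and Grm4 (9.74 ± 3.21) did not differ beyond their spread, and Grm8 was lowest (1.90 ± 0.533). After AC-T the level of Grm5 was 22.4 ± 2.74 and that of Grm3 15.4 ± 1.22, while Grm7 (9.91 ± 0.791) and Grm2 (8.99 ± 1.10) lay above Grm4 (5.59 ± 0.649) and Grm8 (2.34 ± 0.197; SD, n = 5). The order of the middle receptors depends on the transcript length used: per kilobase of the median protein-coding transcript, Grm7 (24.8 ± 2.43) and Grm2 (22.7 ± 1.58) stood above Grm3 (13.7 ± 0.974) and Grm4 (13.1 ± 4.33) after saline. Grm5 stayed first and Grm8 last on either length. The transcripts that these libraries hold were not determined.

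The sum of the 6 receptors per kilobase of the longest transcript was 60.9 to 68.5 after saline and 62.2 to 69.6 after AC-T. Within that sum Grm4 took 15.1 ± 4.59% after saline (SD, n = 6) and 8.69 ± 1.25% after AC-T (SD, n = 5). The share of Grm5 was 27.9 ± 3.51% after saline and 34.5 ± 2.56% after AC-T. The ratio of Grm5 to Grm4 counts was 1.62 to 5.02 in the saline libraries and 6.00 to 10.3 in the AC-T libraries, with the lowest value in saline 202 and the highest in AC-T 502. These shares and ratios are descriptions without a test.

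**Figure D4:**
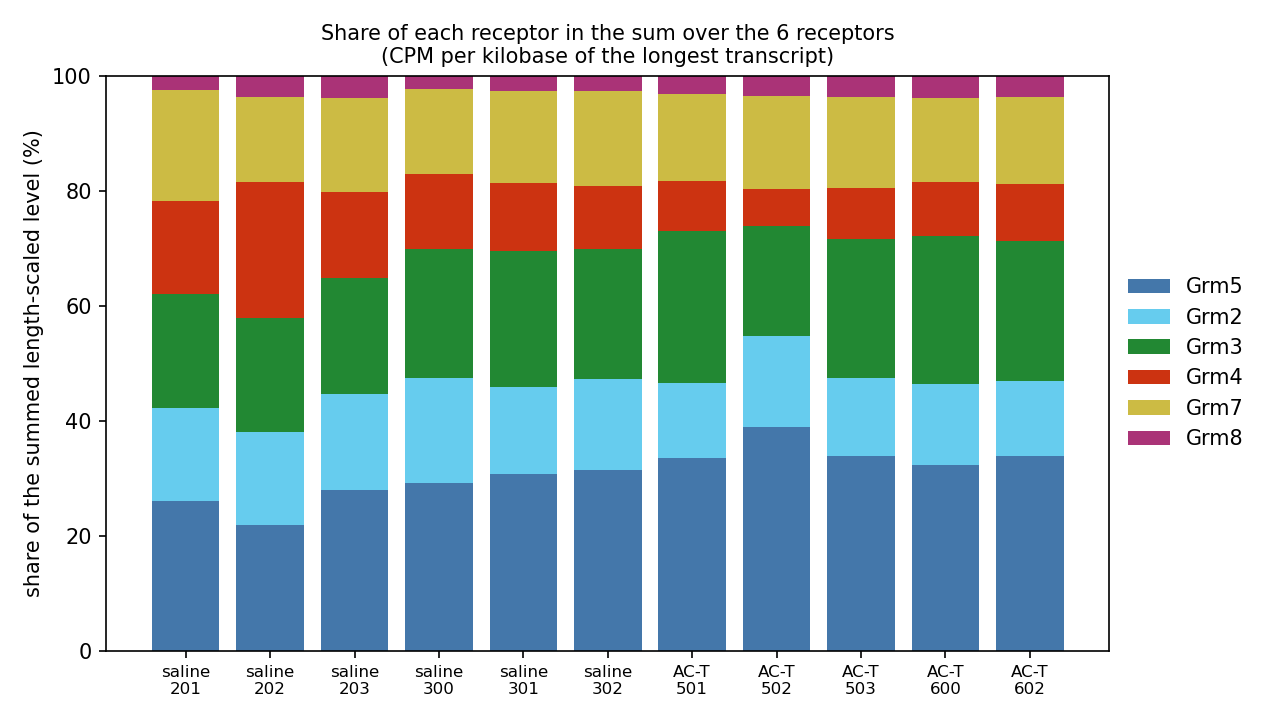
Share of each receptor in the sum over the 6 receptors, in percent, with 1 bar per library and levels scaled per kilobase of the longest transcript. The Grm4 segment takes 10.9% to 23.6% in the saline bars and 6.59% to 9.79% in the AC-T bars, and the Grm5 segment 21.9% to 31.4% and 32.4% to 39.0%.

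The genes whose log2 CPM followed each receptor most closely over the 11 libraries were found among 12530 genes. The values are descriptions, and they include the difference between the treatments. Grm4 was followed most closely by Kcnj12, an inward rectifier potassium channel (Pearson r = 0.971), Kctd9 (0.966) and Obsl1 (0.963). Grm5 was followed by Camsap2, which binds microtubule minus ends (0.978), Rab8b, a small GTPase (0.975), and Fam171b (0.974). For Grm2 the closest were Thbs2, a thrombospondin (0.931), Tiparp (0.899) and Zfp322a (0.874), and for Grm3 Arhgap10, a GTPase activating protein (0.919), Znfx1 (0.906) and Ccl27a, a chemokine (0.904). Grm7 was nearest to Wdr37 (0.940), Unc5c, a netrin receptor (0.923), and Akr1e1 (0.888), and Grm8 to Cds1 (0.946), Tshz3, a zinc finger transcription factor (0.932), and Igfbp6 (0.929). With any 1 library left out the lowest r of these pairs was 0.837, for Grm2 and Zfp322a. Within the saline libraries alone the lowest were 0.608, for that pair, and 0.618, for Grm2 and Tiparp. The pairs were picked by their r in these same libraries.

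The receptors' signalling partners were examined in 6 lists of 117 genes, of which 115 were tested. Of these, 17 rose and 8 fell (21.7% called, against 8.47% of all genes tested), with a median log2 fold change of 0.10 against −0.003 over all genes tested. The lists were chosen with earlier results of these data known. These shares therefore cannot show that the partners changed more often than other genes. Prkcd, Rgs16 and Slc17a6, 3 of the 8 that fell, also belong to the thalamic marker list. With the thalamic marker level as covariate 0 of the 115 passed in edgeR and 3 had an unadjusted p under 0.05. Over all 15353 genes tested, 1 passed in that fit and 453 had an unadjusted p under 0.05. Because the marker levels of the treatments do not overlap, that fit cannot show whether the calls go with thalamic content. In DESeq2, without that covariate, 43 of the 115 passed. Without AC-T 502 the count was 16. With series as a random effect in limma-voom 12 of the 25 calls held, 6 higher and 6 lower. The 13 that ended there (adjusted p = 0.0555 to 0.173) included those of Gnaq, Prkca, Cnr1, Gnb5, Adcy7, Calm2, Shank3, Slc17a7 and Fmr1, which are described in the next paragraphs.

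Of 22 genes of the Gq and phospholipase C route used by group I receptors, 6 rose and 3 fell (median log2 fold change 0.15). Plcb1, the phospholipase C isoform of hippocampal pyramidal neurons, rose from 120 ± 12.9 to 176 ± 9.78 CPM (SD, n = 6 and 5; edgeR adjusted p = 0.00248). The saline libraries held 100 to 131 CPM of Plcb1 and the AC-T libraries 167 to 191 CPM. Prkcd, the delta isoform of protein kinase C, fell to 0.432 of its saline level (edgeR adjusted p = 0.0108). The other calls given here were chosen for mention after their values were seen. Gnaq, the alpha subunit of Gq, rose 1.19-fold and the protein kinase C genes Prkca and Prkcb 1.34-fold and 1.39-fold. Cnr1, the cannabinoid receptor on which group I driven endocannabinoids act, rose 1.48-fold (edgeR adjusted p = 0.0124), and Plcb4, a phospholipase C gene, fell to 0.588 (0.0175). The calls of Prkca and Plcb4 ended without AC-T 502 (edgeR adjusted p = 0.0600 and 0.0518). The call of Gnaq ended without AC-T 502, AC-T 600, AC-T 602, saline 203 or saline 300 (highest edgeR adjusted p = 0.0702). Without AC-T 502 the list had 5 calls, 3 higher and 2 lower. Without AC-T series 6 only 2 genes passed and without AC-T series 5 only 1.

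Of 30 genes of the Gi/o route of group II and III receptors, 6 rose and 1 fell (median 0.16). Gnao1, the alpha subunit of Go and an abundant neuronal G protein, rose 1.16-fold (564 ± 14.4 against 484 ± 15.3 CPM; edgeR adjusted p = 0.00741). Gnai1, an alpha subunit of Gi, rose 1.28-fold (edgeR adjusted p = 0.0117) and Gnb5, a G protein beta subunit that pairs with RGS proteins, 1.19-fold (0.0179). Adcy7, an adenylyl cyclase chosen after its values were seen, fell to 0.633 (edgeR adjusted p = 0.0377). Its log2 fold change was 0.24 with the thalamic covariate, a fit in which treatment and marker level cannot be told apart well. On omission of 1 library, Adcy7 kept its call only without AC-T 602, saline 301 or saline 302 (highest edgeR adjusted p over the other omissions, 0.0967). The list had 7 calls with all libraries. It had 3 without AC-T 502, AC-T 503 or saline 300, 4 without AC-T 600 or AC-T 602, and 3 with library totals as the scaling. Those 4 without AC-T 600 are not all among the 7, since the calls of Adcy7, Gnaz, Prkar1b and Prkar2b ended there (edgeR adjusted p = 0.0520 to 0.0814).

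Of 20 genes for proteins that bind the receptors, directly or through a scaffold, 3 rose and 1 fell (median 0.13). Homer1, whose product tethers the tails of group I receptors to the postsynaptic density, rose 1.95-fold, from 41.9 to 63.0 CPM in the saline libraries to 87.4 to 113 CPM in the AC-T libraries (edgeR adjusted p = 0.00192). The counts are per gene, so which Homer1 transcripts rose was not determined. Cyth2, an exchange factor for ARF GTPases that is linked to the receptors through a scaffold, rose 1.17-fold, and Calm2, 1 of the calmodulin genes, 1.23-fold (edgeR adjusted p = 0.00980 and 0.0118). Calmodulin genes encode the same protein and have related transcripts, so the share of reads given to each is uncertain. Shank3, a postsynaptic scaffold gene named after its values were seen, fell to 0.748 (edgeR adjusted p = 0.0164).

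Fewer calls came from the remaining lists. Of 16 genes of receptor desensitisation, 1 passed: Rgs16, a regulator of G-protein signalling, fell to 0.466 of its saline level (edgeR adjusted p = 0.00672). Of 13 genes that supply or clear the ligands, Slc17a6, the vesicular glutamate transporter of thalamic neurons, fell to 0.517 (edgeR adjusted p = 0.00552). Rimkla, a synthetase of N-acetylaspartylglutamate, fell from 23.3 ± 3.34 to 15.6 ± 0.959 CPM (edgeR adjusted p = 0.00567). Slc17a7, the vesicular glutamate transporter of cortical and hippocampal neurons, rose 1.28-fold (edgeR adjusted p = 0.0353), and this call ended on omission of any library but saline 201, saline 301 or saline 302 (highest edgeR adjusted p = 0.0939). Of 14 effectors of group I dependent plasticity, Fmr1, an RNA-binding repressor of translation, rose 1.14-fold (63.6 ± 1.51 against 55.9 ± 2.48 CPM; edgeR adjusted p = 0.0154). This call, the 1 in its list, ended with series as a random effect (limma-voom adjusted p = 0.0751) and without series 2 or series 5 (edgeR adjusted p = 0.0735 and 0.176).

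**Figure D5:**
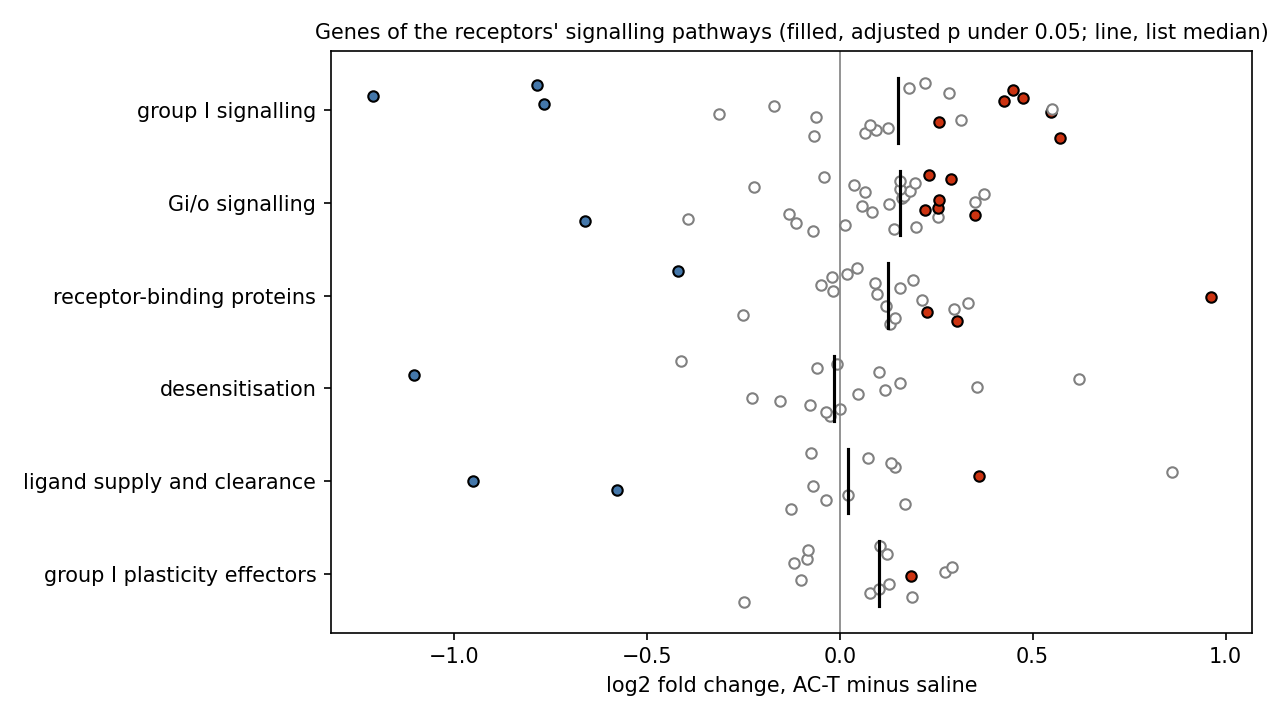
Log2 fold change, AC-T minus saline, of each tested gene of the 6 pathway lists; filled points passed at an adjusted p under 0.05 (red higher, blue lower) and black lines are list medians. Homer1 lies furthest right at 0.96 and Prkcd furthest left at −1.21.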

How the data were processed

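Gene expression was measured by RNA sequencing of stranded polyadenylated libraries, per the labels' protocols. The deposited table holds expected counts per gene, which the authors made with Salmon 1.9.0 after FastQC 0.11.9, per the submitters' processing notes; the build named there is GRCm39, and the step that wrote the table and its annotation release are not given in the sources used here. Between 13.7% and 14.7% of values per library have a fraction, and they were rounded. The annotation at hand is of an older build (GRCm38), so no coordinates are given, and transcript lengths come from it by gene ID. A listed 0 may be a value under a reporting limit.

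The test was the quasi-likelihood F test of edgeR 4.0.16, run under R 4.3.3 (2-sided, TMM scaling, filterByExpr with a minimum count of 10), on 5 AC-T and 6 saline libraries, without covariates; the series states 6 samples per group. CPM use TMM scaling; log2 CPM add a prior count of 2. SEs are from the fit. DESeq2 1.42.0 and limma 3.58.1 (voom) were alternatives, with other scalings, filters, covariates and omitted libraries. The procedure was tested on simulated counts drawn independently for each library. That simulation held no series or tissue differences, so it cannot show how often such differences lead to calls. The smallest chi-square per degree of freedom between libraries was 10.6, so none repeats another.

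All receptors were named; from each pathway list up to 3 genes with the smallest p past the threshold, or the 1 with the smallest p; for likeness, 3 genes per receptor with the highest Pearson r and an average log2 CPM of at least 1. Some genes that this rule names are left out of the text. The members and lists were chosen with earlier results of these data known. The 14 marker lists describe tissue content; those other than tissue, thalamic, astrocyte and oligodendrocyte lists are given under other observations.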

Additional observations from a re-analysis of the deposited data

Results flagged for a closer look

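In 72 sets of values from 1 group, 11 had a library far from the others of its group by Dixon's criterion, of which chance gives about 1 in 20. AC-T 502 accounted for 5 of them: Grm2 at 51.4 CPM (next 41.4), Grm3 at 40.6 (next 47.8), Grm5 at 218 (next 176), Slc17a7 at 1140 CPM (next 1013) and oligodendrocyte markers at a mean log2 CPM of 9.23 (next 9.75). Grm8 in AC-T 501 was low, at 7.70 CPM (next 9.16). Slc17a6 in AC-T 602 was high, at 91.8 CPM (next 67.6). Dentate granule markers were low in saline 202 (mean log2 CPM 4.84, next 5.40) and AC-T 503 (4.61, next 5.22). Choroid plexus markers were low in AC-T 501 (−0.30, next 5.06). Hippocampal tissue markers were low in AC-T 503 (6.88, next 7.13).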

How the results depend on the processing

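The direction of all 6 receptors was the same in each of 26 alternatives. Grm4 passed in 15 of them; it did not pass with series as a random effect (log2 −0.73), with the thalamic covariate (−0.11), without series 2 (−0.43), 5 (−0.68) or 6 (−0.89), or on omission of any 1 of 6 libraries (−0.84 to −0.73); over all 11 omissions its range was −0.88 to −0.61. Grm5 passed in 2 (0.31 with DESeq2 and 0.32 for genes above 0 in all libraries), with −0.23 for Grm2 under DESeq2 and 0.57 for Grm8 without series 2 passing as well. On omission of 1 library Grm2 ranged from −0.30 to −0.19, Grm3 from 0.14 to 0.22, Grm5 from 0.25 to 0.36, Grm7 from −0.13 to −0.04 and Grm8 from 0.22 to 0.42. Of all genes, 1301 passed; the count was 2559 with DESeq2, 293 with series as a random effect, 1 with the thalamic covariate, 549, 317 and 409 without series 2, 5 and 6, and 625 to 1229 on omission of 1 library (625 for AC-T 502, 681 for AC-T 602, 815 for saline 202 and 832 for saline 300). With upper quartile factors 593 were higher and 663 lower, with library totals 487 and 548, against 751 and 550. The pathway lists had 43 calls with DESeq2, 12 with series as a random effect (6 higher and 6 lower), 0 with the thalamic covariate (edgeR; 3 at an unadjusted p under 0.05), 5 and 10 without series 5 and 6, and 16 to 26 on omission of 1 library. Adcy7 reversed with the thalamic covariate (0.24), a fit in which treatment and marker level cannot be told apart well. Between the saline series 0 to 1 receptor passed on omission of 1 library (Grm4 without saline 201, adjusted p = 0.0490), and between the AC-T series 0 in each of those fits. Omissions lower the number of libraries; for the other changes the cause was not tested. No paired analysis was possible because the groups share no mouse number. The lone libraries left in a series by an omission were assumed to vary like the rest. Counting error is small at these depths except for Grm8, with 138 to 316 counts.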

Other observations

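Marker lists not described above differed in how far the groups lay apart. CA1 pyramidal neuron markers had a mean log2 CPM of 3.68 to 5.53 after saline and 5.63 to 6.07 after AC-T, without overlap. Of the 8 markers, 1 passed, as higher, and 6 had an unadjusted edgeR p under 0.05. Their median log2 fold change was 0.91. The marker level was 3.68, 4.26 and 4.58 in saline 201, 202 and 203, and 5.31, 5.38 and 5.53 in saline 300, 301 and 302. The part of CA1 content in the levels of Grm5, Plcb1 and Slc17a7 was not tested. Neocortical markers stood at 3.02 to 4.13 after saline and 3.99 to 4.36 after AC-T, with 5 of 12 higher and 1 lower. Interneuron markers stood at 5.13 to 5.50 and 5.42 to 5.65, with 4 of 10 higher and 2 lower. CA2 and CA3 markers (4.57 to 5.08 and 4.64 to 4.79), dentate granule markers (4.84 to 5.50 and 4.61 to 5.45) and striatal markers (2.21 to 3.86 and 2.18 to 4.62) overlapped. So did oligodendrocyte precursor markers (5.40 to 5.57 and 5.29 to 5.70), microglial markers (5.48 to 5.82 and 5.59 to 5.93), endothelial and mural markers (5.47 to 5.67 and 5.27 to 5.60) and choroid plexus markers (−0.39 to 6.95 and −0.30 to 6.90).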
